A study of Homo sapiens with 6 samples.

Results

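The nuclear-encoded subunits of the mitochondrial respiratory chain and ATP synthase were followed in 3D collagen I cultures of MDA-MB-231, an established line of human breast cancer cells. The subunits were 53 genes chosen by name from the 61228 gene rows of the table: 26 of complex I, 4 of complex II, 6 of complex III, 10 of complex IV and 7 of complex V. All 53 were present and all 53 passed the filter on low counts, beside 14704 genes tested in all. NDUFA4 was counted with complex IV, where its protein is now placed, and not with complex I, as its symbol reads.

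Control cells had been nucleofected, an electrical delivery method, with the Cas9 nuclease and control guide RNAs. Knockout cells (KO) carry in their treatment label a knockout of ETV1, ETV4 and ETV5, a family of ETS transcription factors, made with Cas9 and guides to these genes, while their titles name ETV4 alone. Each group had 3 libraries of polyadenylated RNA. The KO libraries share the tag c39. Whether they come from 1 clone, and which of the collagen concentrations in the protocol was used, is not stated, nor are the replicates of a group said to be separate cultures. The p-values therefore reflect the spread among the libraries alone, and that spread may be technical.

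Respiratory complexes sit in the inner mitochondrial membrane. Complexes I and II pass electrons from NADH and succinate to ubiquinone, complex III passes them to cytochrome c, and complex IV to oxygen. Complexes I, III and IV pump protons, and complex V, the ATP synthase, makes ATP from their return. Most subunits come from nuclear genes and are imported, while a small core of subunits is encoded in mitochondrial DNA. In low oxygen, hypoxia-inducible factors are known to lower respiration through PDK1, a kinase that keeps pyruvate out of the citric acid cycle, and through exchange of some subunits for other isoforms.

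Library totals ran from 18042601 to 23232770 counts. Replicate 3 of both groups stood apart from replicates 1 and 2. The block calls below are therefore set beside a group fit, with no block, that leaves out this pair. ETV1 fell from 223 ± 13.5 to 142 ± 11.1 CPM (counts scaled to the library total with TMM factors, mean ± SD, n = 3), ETV4 fell from 93.9 ± 2.11 to 63.7 ± 2.03 CPM, and ETV5 measured 112 ± 4.77 and 113 ± 1.23 CPM (edgeR adjusted p = 0.00125, 6.12e-04 and 0.932). Of mesenchymal markers of the line, VIM, CD44, AXL, MSN and CAV1 were all measured, with a summed level of 8831 to 10950 CPM in control and 7683 to 9238 CPM in KO. Most of that sum was VIM (6661 ± 865 CPM in control and 5401 ± 564 CPM in KO). The log2 fold change, KO over control, was below 0 for VIM (-0.30), MSN (-0.30) and AXL (-0.13). It was above 0 for CD44 (0.35) and CAV1 (0.16). Among leukocyte markers, CD3E had no count and PTPRC had 4 to 11 counts a library. The summed level of CD3E, PTPRC, CD14 and LYZ was 6.66 to 7.97 CPM in control and 2.68 to 3.03 CPM in KO, and LYZ, which fell, made up most of the control level (6.03 ± 0.246 CPM). Of 5 endothelial markers CDH5 had no count, and the sum was 9.74 to 11.1 CPM in control and 5.89 to 8.46 CPM in KO, where PECAM1 fell. Fibroblast markers summed to between 11.7 and 13.9 CPM in all libraries. Luminal markers, mostly KRT8, summed to between 456 and 487 CPM in control and between 520 and 556 CPM in KO. The part of these markers in the results below was not tested.

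Respiratory subunit transcripts differed little between KO and control. By edgeR's quasi-likelihood test, with p-values adjusted over all genes and a threshold of 0.05, 0 of 53 subunits passed, against 9.7% of all tested genes (3.28% higher and 6.42% lower in KO). At an unadjusted p under 0.05 there were 3 subunits, CYC1, NDUFB10 and NDUFS8, or 5.66%, against 25.4% of all genes. DESeq2 called 1 subunit, CYC1, higher, against 593 of 14704 genes. The log2 fold changes, KO over control, lay between -0.09 (ATP5PO) and 0.32 (NDUFS6), with quartiles of 0.03 and 0.18. For all tested genes the quartiles were -0.18 and 0.14. For 44 of 53 subunits the 95% interval of the log2 fold change lay within a 1.5-fold change in either direction, for 50 within 2-fold, and for 23 within 1.25-fold.

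The small differences nonetheless had mostly 1 sign. The log2 fold change was above 0 for 46 of 53 subunits, against 50.7% of all genes, and the median was 0.10, a 1.07-fold difference, against 0.00 for all genes. Between same-numbered replicates, the median log2 difference of the 53 subunits was 0.06 for pair 1, 0.13 for pair 2 and 0.09 for pair 3. KO lay above control in all 3 pairs for 33 subunits, or 62.3%, against 29.4% of all genes. It lay below in all 3 pairs for NDUFV1 alone, against 28.2% of all genes. All 3 KO libraries lay above all 3 controls for 6 subunits (CYC1, NDUFA6, NDUFB6, NDUFB10, NDUFS8 and SDHB), or 11.3%, against 14.9% of all genes. These counts describe genes that vary together across the 6 libraries and carry no test.

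With the replicate number as a block, a fit that compares KO with control within same-numbered pairs, 18 subunits were higher and 0 lower. That is 34% of the subunits, against 17.2% of all genes called higher by this fit and 16.7% called lower. The 18 had log2 fold changes from 0.10 to 0.32, that is 1.07-fold to 1.24-fold, with a median of 0.18. The group fit without replicate 3 of both groups has no block and fewer libraries. It gave 12 higher subunits and 0 lower, against 11.7% of all genes higher and 13.7% lower, and 11 of the 12 were among the 18. The other 7 of the 18 did not pass in that fit: NDUFS8 (adjusted p = 0.0964 by edgeR), NDUFA2 (0.129), NDUFC2 (0.0767), COX5A (0.0937), COX7C (0.0535), COX8A (0.0526) and ATP5MC3 (0.104). The block itself was not refitted without this pair. Leaving out KO replicate 3 alone gave 4 higher subunits (NDUFS6, CYC1, UQCRB and NDUFA4), against 777 of 15026 tested genes higher. Leaving out any other single library gave 0. The subunits had a median of 74.7 CPM and all tested genes 23.8 CPM, so the shares over all genes include many genes counted less deeply. In simulated libraries the block recovered 84% of genes changed 1.25-fold and the group fit 4%, and the block called 24 of 14287 unchanged genes where the group fit called 0. These libraries were drawn from the block fit itself, with a replicate effect shared by both groups. That setting favours the block, so it cannot check whether the replicate numbers pair the libraries.

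**Figure D1:**
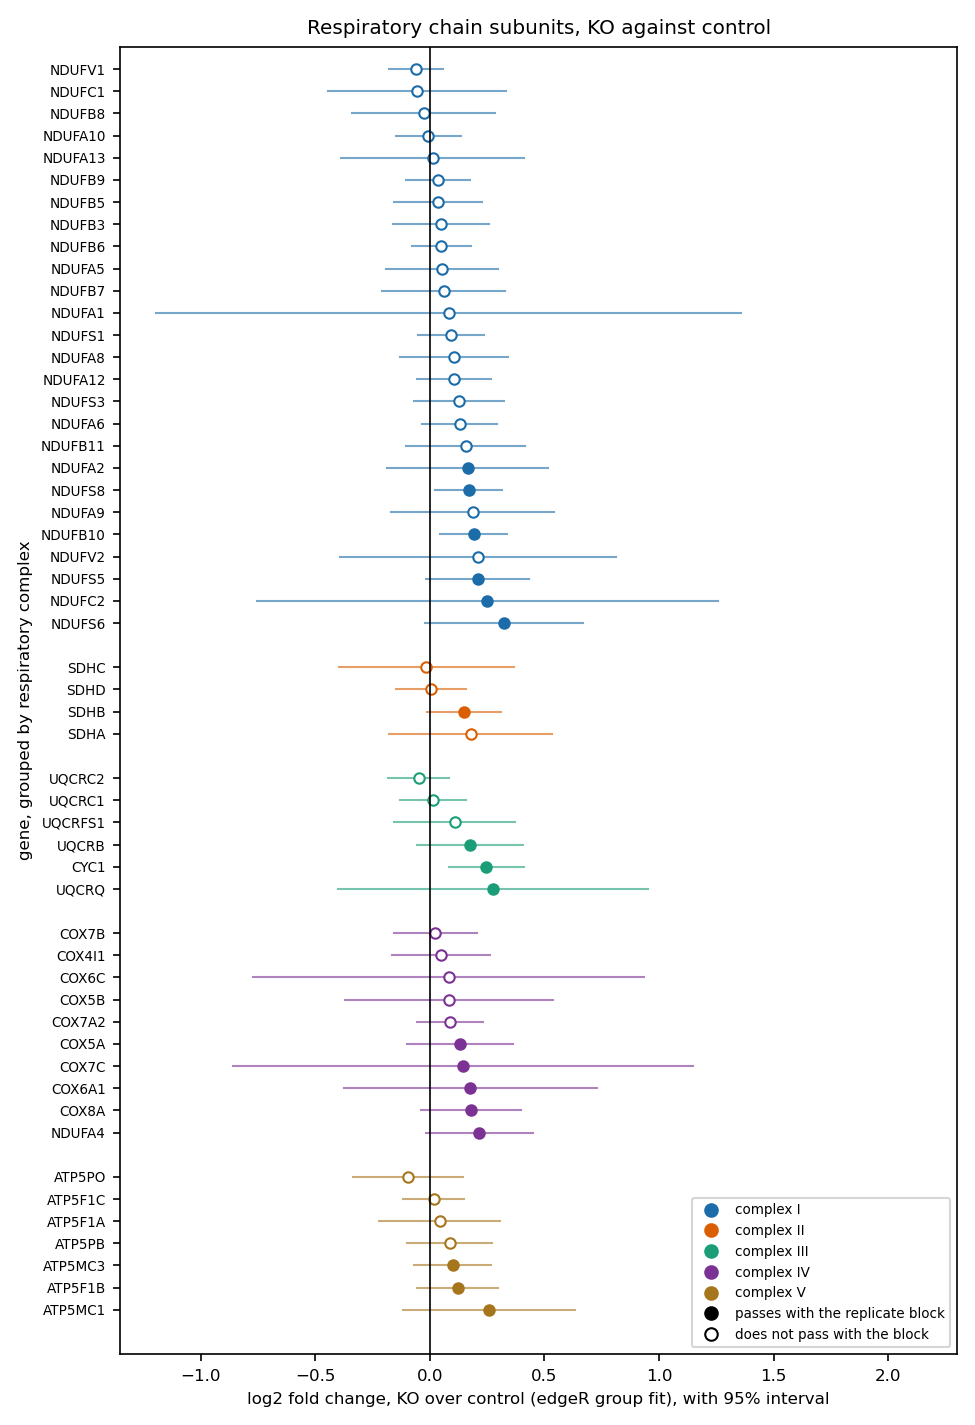
Log2 fold change (KO over control, edgeR group fit) of each of the 53 subunits, grouped by complex, with its 95% interval as a line. Filled points mark the 18 subunits that passed with the replicate block; 46 points lie to the right of 0, and the widest intervals belong to NDUFA1, COX7C and NDUFC2.

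Promoters of the subunits were searched for letters of 3 kinds of binding site, since the targeted genes encode ETS factors. RefSeq promoter windows on GRCh38.p14, from 250 bases before to 50 after the transcript start, were found for 42 of the 53 subunits. CCGGAAG, an ETS core, was present on either strand in 13 of 42 (31.0%), against 22.4% of 10757 tested genes with a promoter and 10.3% of all 35116 windows. The palindromic consensus site of the respiratory regulator NRF1 was present in 3 (7.1%), against 2.69% of tested genes and 1.24% of all windows. ACGTG, a core of hypoxia response elements, was present in 9 (21.4%), against 32.2% of tested genes and 21.4% of all windows. Subunits and tested genes count as matched if any of their windows matched, while the share of all windows counts each window singly. The share of windows is thus not a like measure. The median log2 fold change was 0.08 for the 13 subunits with CCGGAAG and 0.10 for the 29 without it, and 4 of the 13 and 7 of the 29 were higher with the block. No window was found for CYC1, UQCRB, NDUFA4, ATP5F1B, ATP5MC3, NDUFS5 and NDUFC2. These were also higher with the block and are left out of that comparison. A match of letters is a description and not a bound site. The 4 subunits that both hold CCGGAAG and were higher with the block are shown by 30 bases around the match, 5′ to 3′ on the strand of the gene, with the match, or its reverse complement CTTCCGG, in capitals. The windows are chr1:17054143-17054172 (minus strand) for SDHB, chr5:132866576-132866605 (plus) for UQCRQ, chr12:120438085-120438114 (plus) for COX6A1 and chr11:63974590-63974619 (plus) for COX8A.
SDHB: ccacccgggaaaCCGGAAGccgcctcccac
UQCRQ: aaatggtatctcCCGGAAGttacctcacga
COX6A1: tttccacttccgCTTCCGGcgctgcggcag
COX8A: ccagctccagaaCTTCCGGccagcgcagcc
Counted from the RefSeq transcript start, the match begins at -128 in SDHB, -54 in UQCRQ, -16 in COX6A1 and -18 in COX8A, and it lies on the opposite strand in COX6A1 and COX8A. GENCODE release 29 places the outermost start of all 4 genes further upstream than RefSeq does.

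Complex I, the NADH dehydrogenase and the entry point for electrons from NADH, had 22 of 26 subunits with a log2 fold change above 0, a median of 0.10, and 0 past the group test. With the block 6 of the 26 were higher and 0 lower, against 17.2% of all tested genes higher and 16.7% lower. NDUFB10, an accessory subunit of the distal membrane arm (ENSG00000140990, GRCh38 chromosome 16, 1959508 to 1961975, plus strand), measured 62.6, 64.0 and 62.2 CPM in control replicates 1, 2 and 3 and 69.2, 76.7 and 69.6 CPM in KO. All KO libraries lay above all controls, and the log2 fold change was 0.19 (standard error 0.06, adjusted p = 0.101 by edgeR, and 0.00189 with the block). NDUFS8, which holds iron-sulfur clusters near the ubiquinone site (ENSG00000110717, chromosome 11, 68030617 to 68036644, plus strand), measured 70.9, 69.7 and 72.0 CPM in control and 77.5, 76.2 and 85.6 CPM in KO. The groups did not overlap here either, with a log2 fold change of 0.17 (standard error 0.06, adjusted p = 0.138 by edgeR, 0.00373 with the block, and 0.0964 without replicate 3 of both groups).

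In the module of complex I that oxidises NADH, NDUFS6 had the highest log2 fold change of all 53 subunits. It is an accessory subunit of that module and was chosen for description after its values were seen, as were NDUFS5, NDUFC2 and the further subunits named for their replicate 3 values below. NDUFS6 measured 64.4, 66.9 and 51.6 CPM in control and 83.6, 85.2 and 59.8 CPM in KO. The groups overlapped because replicate 3 was low in both, while each KO library lay above its same-numbered control. Its log2 fold change was 0.32 (standard error 0.15, adjusted p = 0.224 by edgeR, and 9.15e-07 with the block). The flavin-bearing NDUFV1, which accepts electrons from NADH, pointed the other way, at 116, 119 and 115 CPM in control and 113, 111 and 112 CPM in KO (log2 fold change -0.06, standard error 0.05, adjusted p = 0.533 by edgeR, and 0.27 with the block). All 3 KO libraries of NDUFV1 lay below the controls, at 112 ± 1.21 CPM against 117 ± 2.18 CPM. It was the only 1 of the 53 subunits to do so, against 16.8% of all tested genes. The iron-sulfur subunit NDUFS1 had a log2 fold change of 0.09 (SE 0.06), with KO above control in all 3 pairs. Over the 6 subunits of the module the median was 0.13.

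The proximal membrane arm held NDUFS5, at 122, 123 and 99.3 CPM in control and 134, 145 and 121 CPM in KO. Replicate 3 was again the lowest library of each group and the groups overlapped (log2 fold change 0.21, standard error 0.10, adjusted p = 0.23 by edgeR, and 3.5e-05 with the block). Among 7 subunits of that part the median was 0.08, and in the distal arm, among 8, it was 0.05. In the module around the ubiquinone site, all 5 subunits (NDUFA5, NDUFA6, NDUFA9, NDUFS3 and NDUFS8) had KO above control in all 3 pairs, with a median of 0.13. The subunits of complex I that passed with the block besides those already given were NDUFA2 (block log2 fold change 0.16, edgeR adjusted p = 0.0427) and NDUFC2 (0.26, edgeR adjusted p = 0.00469), and neither passed without replicate 3 of both groups. NDUFV2, with 1.16 ± 0.0899 and 1.34 ± 0.282 CPM, is poorly counted: the row of a pseudogene named after it holds 461 counts over the 6 libraries and its own row 148.

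Complex II, succinate dehydrogenase, also serves in the citric acid cycle. SDHB, its iron-sulfur subunit (ENSG00000117118, chromosome 1, 17018722 to 17054170, minus strand), measured 56.3, 51.5 and 59.8 CPM in control and 62.4, 60.3 and 63.5 CPM in KO. Every KO library lay above every control (log2 fold change 0.15, standard error 0.07, adjusted p = 0.229 by edgeR, and 0.0177 with the block). The flavoprotein SDHA measured 14.5, 15.0 and 11 CPM in control and 14.2, 18.2 and 13.2 CPM in KO, with overlapping groups (log2 fold change 0.18, standard error 0.16, adjusted p = 0.538 by edgeR, and 0.163 with the block). SDHA has pseudogene rows with 3654 counts in all against its own 1699, so how its reads were divided is uncertain. The membrane anchors SDHC and SDHD stood at log2 fold changes of -0.02 (SE 0.16) and 0.00 (SE 0.07).

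Complex III, the cytochrome bc1 complex, had 5 of 6 subunits above 0, with a median of 0.14. CYC1, cytochrome c1, which hands electrons to cytochrome c, came closest to passing the group test. It measured 254, 247 and 222 CPM in control and 291, 296 and 270 CPM in KO. All KO libraries lay above all controls, and the log2 fold change was 0.25 (standard error 0.07, 1.19-fold, adjusted p = 0.0671 by edgeR). CYC1 passed with the block (edgeR adjusted p = 5.73e-08), without replicate 3 of both groups (1.48e-04), with no filter on low counts and without KO replicate 3. UQCRB, a small subunit by the ubiquinone site, measured 131, 138 and 113 CPM in control and 152, 154 and 125 CPM in KO. The groups overlapped, with replicate 3 lowest in each (log2 fold change 0.18, standard error 0.10, adjusted p = 0.328 by edgeR, and 3.2e-04 with the block). UQCRQ, another small subunit, had 77.1, 71.5 and 44.9 CPM in control and 86.4, 93.6 and 53.8 CPM in KO. Its replicate 3 values lay far below the others in both groups (log2 fold change 0.28, standard error 0.28, adjusted p = 0.607 by edgeR, and 1.77e-05 with the block). The core proteins UQCRC1 (0.01, SE 0.06) and UQCRC2 (-0.05, SE 0.06) and the Rieske protein UQCRFS1 (0.11, SE 0.12) passed neither fit.

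Complex IV, cytochrome c oxidase, had a log2 fold change above 0 for all 10 subunits in the group fit, with a median of 0.11 and 0 past the test. Under at least 1 of the alternatives 6 of the 10 (COX4I1, COX5B, COX6A1, COX6C, COX7B and COX7C) had the opposite sign. NDUFA4, a small subunit of this complex (ENSG00000189043, chromosome 7, 10931951 to 10940256, minus strand), measured 89.9, 93.0 and 79.2 CPM in control and 107, 111 and 86.1 CPM in KO. KO replicate 3 fell among the controls, and the log2 fold change was 0.22 (standard error 0.10, adjusted p = 0.235 by edgeR, and 1.33e-04 with the block). COX8A, a small membrane subunit, measured 73.2, 71.3 and 83.0 CPM in control and 78.8, 81.4 and 97.6 CPM in KO. Replicate 3 was here the highest library of each group, and the groups overlapped (log2 fold change 0.18, standard error 0.10, adjusted p = 0.286 by edgeR, 0.00183 with the block, and 0.0526 without replicate 3 of both groups). COX5A, COX6A1 and COX7C were also higher with the block (log2 fold changes 0.13, 0.18 and 0.16), and of these COX6A1 passed without replicate 3 of both groups. COX4I1, the subunit that starts assembly with COX5A, measured 207, 213 and 248 CPM in control and 216, 219 and 257 CPM in KO (log2 fold change 0.05, standard error 0.09, adjusted p = 0.797 by edgeR).

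Complex V, the ATP synthase, had 6 of 7 subunits above 0 and a median of 0.09. ATP5MC1, which encodes the c subunit of the proton-driven rotor (ENSG00000159199, chromosome 17, 48892765 to 48895871, plus strand), measured 64.9, 67.7 and 93.6 CPM in control and 80.6, 83.4 and 107 CPM in KO. Replicate 3 was the highest of each group, and each KO library lay above its same-numbered control (log2 fold change 0.26, standard error 0.16, adjusted p = 0.375 by edgeR, and 6.35e-06 with the block). ATP5MC3, which encodes the same c subunit protein, had a log2 fold change of 0.10 (standard error 0.07, adjusted p = 0.455 by edgeR, 0.0399 with the block, and 0.104 without replicate 3 of both groups). ATP5F1B, the catalytic beta subunit of the head (ENSG00000110955, chromosome 12, 56638175 to 56646068, minus strand), measured 640, 643 and 567 CPM in control and 696, 698 and 618 CPM in KO. Its groups overlapped through replicate 3, while the 3 same-numbered differences were alike, at 0.12, 0.12 and 0.13 (log2 fold change 0.12, standard error 0.08, adjusted p = 0.382 by edgeR, and 0.00235 with the block). The alpha subunit ATP5F1A (0.04, SE 0.12), the gamma subunit ATP5F1C (0.02, SE 0.06) and the stalk subunits ATP5PB (0.09, SE 0.08) and ATP5PO (-0.09, SE 0.11) passed neither fit.

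**Figure D2:**
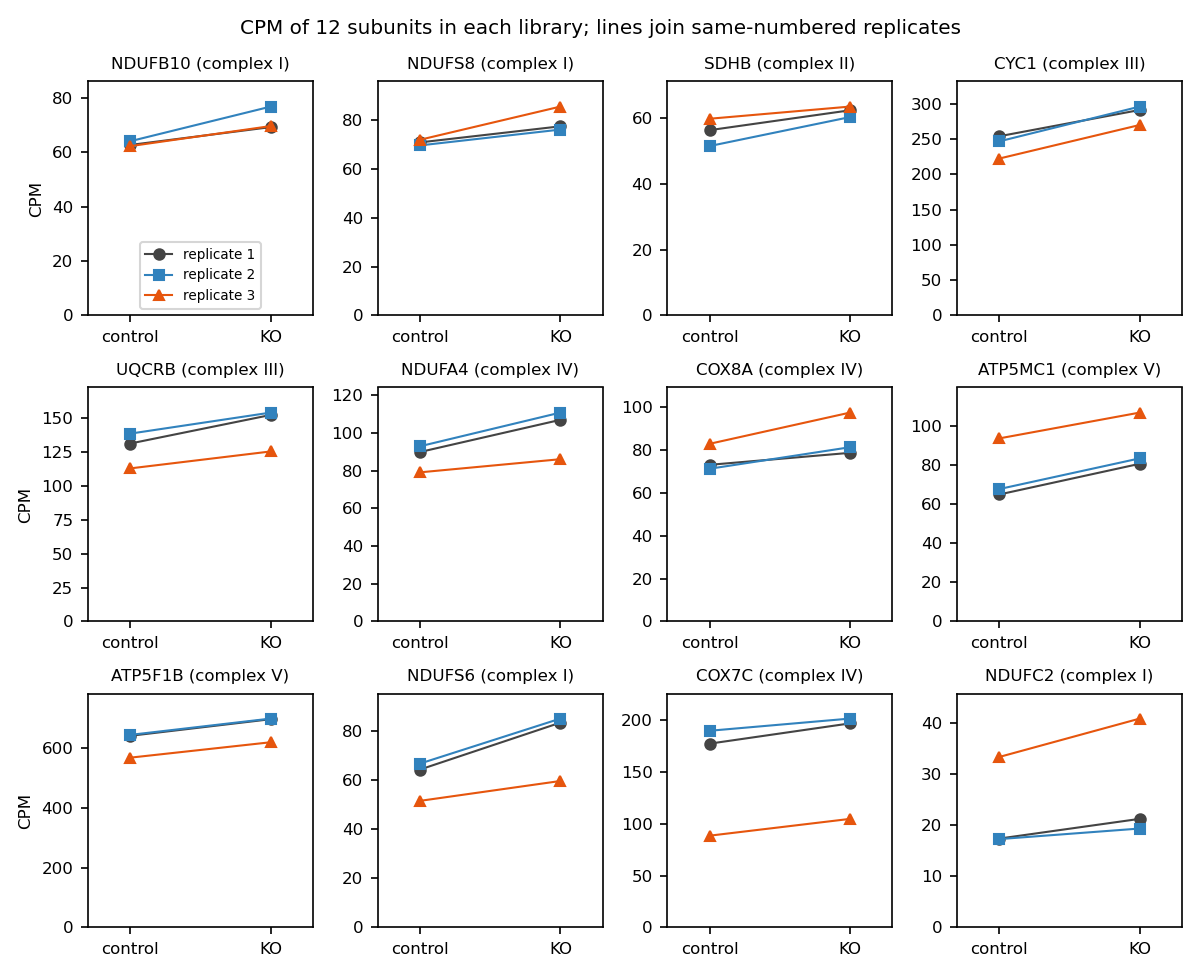
CPM of 12 subunits in each library, from 0 upward: 9 of the 10 given by rule (SDHA is not drawn), and NDUFS6, COX7C and NDUFC2, which were chosen after their values were seen, with lines joining same-numbered replicates of control and KO. Lines slope upward to the KO side in these 12, which all passed with the block, as in 33 of all 53 subunits. SDHA did not pass with the block and was lower in KO in pair 1 (log2 difference -0.03). The upward slopes thus reflect which genes were drawn. Replicate 3 lies far from replicates 1 and 2 in both groups for COX7C (88.4 and 105 CPM) and NDUFC2 (33.4 and 40.9 CPM).

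Summed over subunits, complex I came to 1376, 1376 and 1325 CPM in control and 1445, 1500 and 1427 CPM in KO, without overlap. Complex III came to 842, 825 and 722 CPM in control and 904, 929 and 795 CPM in KO, and complex IV to 1060, 1086 and 936 CPM and 1125, 1181 and 1025 CPM. In both of these the KO library of replicate 3 lay below the highest control, so the groups overlapped. Complex II came to 213, 208 and 250 CPM in control and 217, 223 and 252 CPM in KO. Complex V came to 1775, 1748 and 1580 CPM in control and 1859, 1910 and 1656 CPM in KO. The groups overlapped in complexes II and V as well. The ratio of KO to control for all 53 subunits together was 1.05, 1.10 and 1.07 in pairs 1, 2 and 3. These sums give most weight to genes with many counts.

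Most subunits differed more between replicate 3 and the other replicates than between the groups. In control, the log2 difference between replicate 3 and the mean of replicates 1 and 2 was larger in size than the KO log2 fold change for 46 of 53 subunits, or 86.8%, against 51.3% of all tested genes. It ran from -1.29 for NDUFA1 to 0.94 for NDUFC2, which encode small membrane-arm subunits of complex I. NDUFA1 measured 67.1, 68.4 and 27.6 CPM in control and 70.7, 70.8 and 30.5 CPM in KO. COX7C, a small complex IV subunit, measured 177, 189 and 88.4 CPM in control and 197, 201 and 105 CPM in KO. NDUFC2 went the other way, at 17.4, 17.3 and 33.4 CPM in control and 21.3, 19.4 and 40.9 CPM in KO. Both groups had low and high genes in common: 7 of 53 subunits (NDUFA1, COX7C, COX6C, UQCRQ, COX5B, COX6A1 and NDUFC2) shifted by more than 0.5 in the same direction in both, or 13.2%, against 5.56% of all tested genes. NDUFC1 passed this bound in KO (-0.57) and not in control (-0.38). Across the 53 subunits the shift in control and in KO had a Pearson r of 0.93. This is a description across genes of libraries that share a replicate number, and over all 14704 genes r was 0.62. Those include many genes counted less deeply. With a mean log2 CPM above 3, r for replicate 3 was 0.828 over 10032 genes and 0.967 over 50 subunits.

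**Figure D3:**
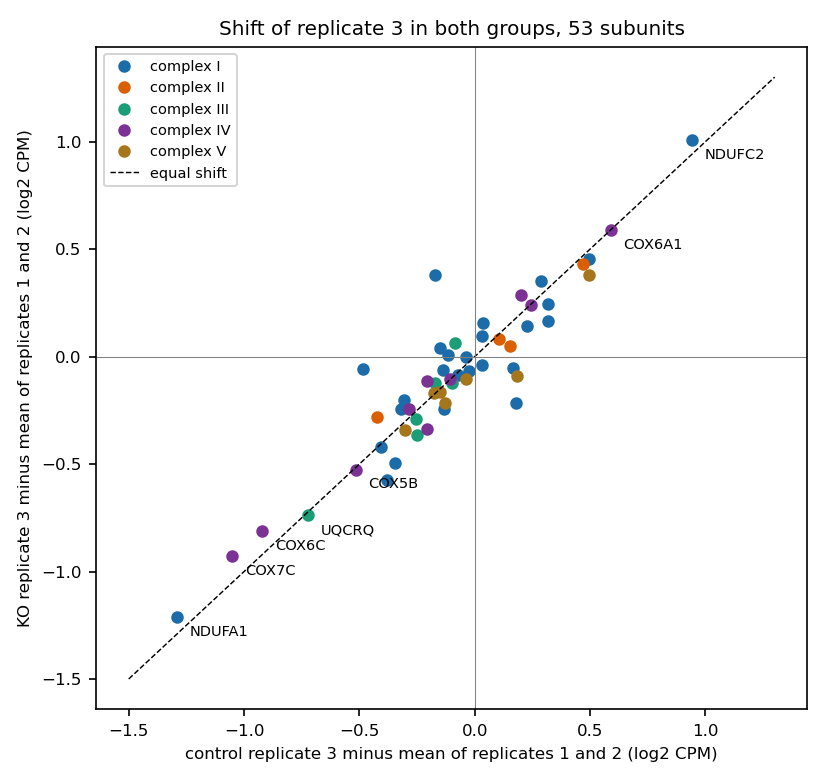
Shift of replicate 3 from the mean of replicates 1 and 2 (log2 CPM) in control (x axis) and KO (y axis) for each of the 53 subunits, coloured by complex, with the line of equal shift. NDUFA1 (-1.29 in control) and NDUFC2 (0.94) stand at the ends, and points lie near the line.

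Other genes of the pathway were counted by the same test. Beside each list here and below stand the shares over all tested genes. They were 3.28% higher and 6.42% lower by that test, and 17.2% higher and 16.7% lower with the block. Of 26 other nuclear subunits 25 were tested and 0 passed, with a median of 0.12 and 24 above 0, and with the block 11 were higher and 0 lower. The smallest p among them was that of NDUFA11 (log2 fold change 0.26, standard error 0.10, adjusted p = 0.153 by edgeR). NDUFA7 had at most 1 count in any library. Of 49 assembly factors, proteins that help build the complexes, 2 were higher and 0 lower, with a median of 0.09. NDUFAF3, a complex I assembly factor, rose from 44.9 ± 2.95 to 54.0 ± 1.22 CPM (log2 fold change 0.27, standard error 0.07, adjusted p = 0.0453 by edgeR), and COA4, of complex IV, from 67.5 ± 5.04 to 81.7 ± 4.03 CPM (0.27, standard error 0.07, adjusted p = 0.0481 by edgeR). With the block 13 assembly factors were higher and 1 lower. Cytochrome c, CYCS, measured 281 ± 50.9 and 331 ± 59.8 CPM (log2 fold change 0.23, standard error 0.16, adjusted p = 0.403 by edgeR, and 1.08e-07 with the block).

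The 13 subunits encoded in mitochondrial DNA varied unevenly across libraries, and 0 passed either fit. Their log2 fold changes ran from -0.29 to -0.02, with a median of -0.20, but the median difference was 0.27 in pair 1, -0.73 in pair 2 and -0.07 in pair 3. MT-CO2, the subunit that takes electrons from cytochrome c, had the smallest p of the 13 and measured 2370, 3305 and 2582 CPM in control and 2797, 1998 and 2391 CPM in KO. Control replicate 2 was the highest library and KO replicate 2 the lowest, and the groups overlapped (log2 fold change -0.20, standard error 0.15, adjusted p = 0.461 by edgeR). Genes of mitochondrial DNA took 3.15%, 4.26% and 3.25% of counts in control and 3.82%, 2.65% and 2.95% in KO.

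Among 17 regulators of mitochondrial biogenesis 1 was higher and 0 lower, with a median of 0.12. GABPB2, a partner of the ETS factor GABPA, rose from 16.4 ± 0.694 to 20.2 ± 0.538 CPM (log2 fold change 0.30, standard error 0.08, adjusted p = 0.0494 by edgeR). With the block 4 were higher and 2 lower, against 17.2% and 16.7% of all tested genes. Among the 4 was TFAM, the packaging factor of mitochondrial DNA (0.19, standard error 0.06, adjusted p = 0.0938 by edgeR, and 7.96e-05 with the block). Of 17 genes of the citric acid cycle and pyruvate dehydrogenase, 1 fell: SUCLG2, a subunit of succinyl-CoA ligase, from 97.1 ± 0.828 to 81.7 ± 2.28 CPM (log2 fold change -0.25, standard error 0.05, adjusted p = 0.0226 by edgeR). The median was 0.04, and with the block 5 were higher and 3 lower, against 17.2% and 16.7% of all tested genes.

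Of 10 genes that link hypoxia to respiration, chosen with earlier results of these data known, 6 fell, 1 rose and 3 did not pass. The 3 were LONP1, the glucose transporter gene SLC2A1 (log2 fold change -0.05, adjusted p = 0.729 by edgeR) and HIGD1A (0.21, adjusted p = 0.693 by edgeR). PDK1 measured 41.6, 37.3 and 44.8 CPM in control and 20.5, 19.5 and 19.5 CPM in KO, with no overlap (log2 fold change -1.06, standard error 0.08, adjusted p = 2.16e-04 by edgeR). The mitophagy receptors BNIP3 (-1.46, SE 0.07) and BNIP3L (-1.06, SE 0.06) also fell. ISCU, the scaffold on which iron-sulfur clusters for the respiratory complexes are built, rose from 57.4 ± 0.998 to 70.2 ± 0.272 CPM (0.29, standard error 0.06, adjusted p = 0.0141 by edgeR). The protease LONP1, which degrades the COX4I1 subunit in hypoxia, had a log2 fold change of -0.21 (standard error 0.07, adjusted p = 0.0945 by edgeR, and 4.87e-06 with the block). The isoforms that are induced in place of COX4I1 and NDUFA4 were at or under the limit of detection. COX4I2 had 0 counts in all 6 libraries, which allows up to 0.129 to 0.166 CPM a library (3 counts, counting error only). NDUFA4L2 had 2, 2 and 4 counts in control and 2, 0 and 0 in KO. Of the other alternative isoforms, COX7B2 alone was tested (log2 fold change -0.15, standard error 0.08, adjusted p = 0.284 by edgeR).

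**Figure D4:**
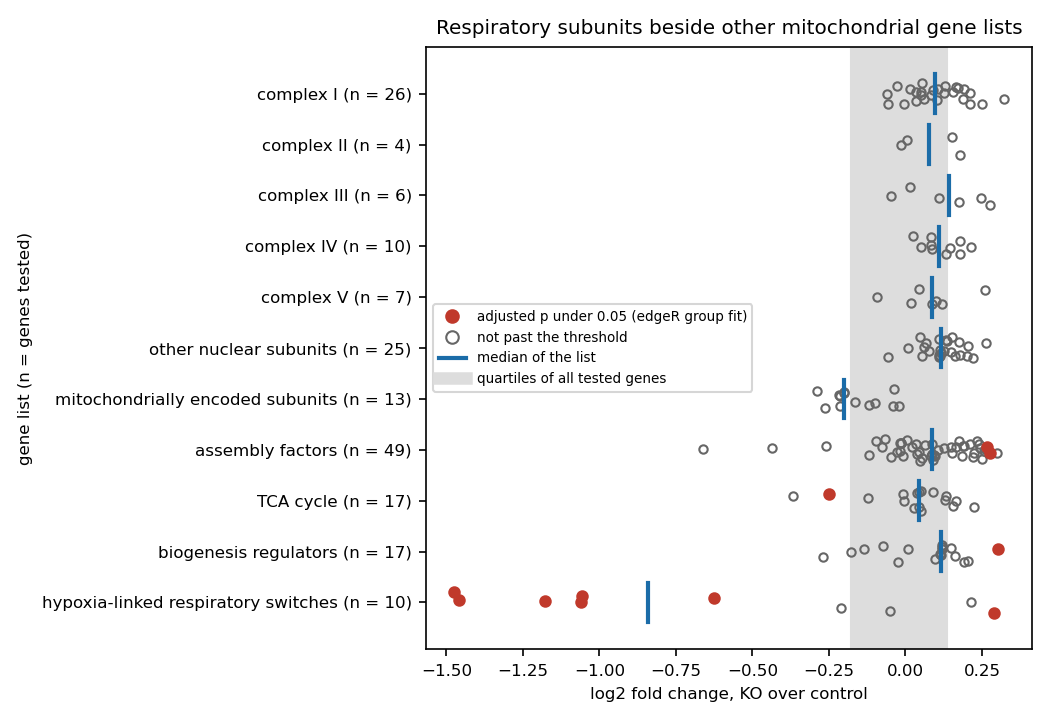
Log2 fold change of each tested gene by list, with red points for genes past the edgeR group test, a bar for each list's median and a grey band for the quartiles of all tested genes (-0.18 to 0.14). The points of the 5 complexes lie between -0.09 and 0.32 with none red, while the hypoxia-linked genes reach -1.48 (EGLN3).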

How the data were processed

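RNA of 3 control and 3 KO samples of MDA-MB-231 cells was sequenced from stranded polyadenylated libraries. The deposited table holds raw read counts per gene, 1 column a library. Per the submitters' processing notes, the authors used FastQC 0.11.9, STAR 2.7.9a and featureCounts with genome build hg38, and R 4.1.1; the sources used here do not give the annotation, strand setting or multi-mapping rule. Of 61228 rows, 32466 had no count.

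Genes were filtered with filterByExpr, scaled with TMM and tested with edgeR 4.0.16 (robust quasi-likelihood fit, R 4.3.3), and p-values were adjusted by Benjamini-Hochberg over all 14704 tested genes, with a threshold of 0.05. The groups came from the sample titles. Members and gene lists were chosen with earlier results of these data known. Each member may be named; full values are given for the 2 with the smallest p in each complex, since none passed, for up to 3 members per direction past the test in other lists (or the 1 with the smallest p), and for ETV1, ETV4, ETV5, PDK1, NDUFA4L2 and COX4I2. Differences per pair and replicate shifts use log2 CPM with a prior count of 2. The SE is the log2 fold change over the square root of F, and the 95% intervals use the moderated degrees of freedom. Intervals and limits from 3 counts cover counting error only where so stated.

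The labels do not say that replicate numbers mark a shared batch. The deviations of same-numbered samples from their group means had correlations of 0.546, 0.45 and 0.828 over 10032 genes (mean log2 CPM above 3). Each was above 0.1, so the number was treated as a pairing, and the blocked values are given beside the results. Replicates 1 and 2 also correlated across numbers (0.592 and 0.584), so it is the replicate 3 libraries that the numbers set apart. Deviations were taken within groups of 3, so a shared shift of replicate 3 correlates libraries 1 and 2 whatever their numbers. The check thus cannot show that libraries 1 and 2 pair by number. The block calls and pair counts assume that they do. Alternatives were DESeq2 1.42.0, its size factors, no filter, the replicate block, each library left out, both replicate 3 libraries left out, and NDUFA4 counted with complex I. The fits that left out libraries compared the groups with no block. The fits were run on simulated data with 14487 genes. The simulated counts were drawn from the block fit with its KO effect set to 0, and changes were then added to well-counted genes. Positions are from GENCODE release 29 on GRCh38. Exons of 16 subunits overlapped another gene on the same strand and those of 22 one on the opposite strand. The 16 were NDUFS1, NDUFV1, NDUFV2, NDUFS3, NDUFS8, NDUFA9, NDUFA13, NDUFC1, NDUFC2, NDUFB8, SDHD, COX6A1, COX7C, COX8A, ATP5PO and ATP5MC3. How reads in these overlaps were assigned was not tested. Named pseudogene rows held at least 1% of a subunit's own count for 3 subunits, NDUFV2, SDHA and UQCRFS1, whose values are uncertain.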

Additional observations from a re-analysis of the deposited data

How the results depend on the processing

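With no filter on low counts 2 subunits were higher (1 each in complexes I and III), against 719 of 28762 genes. With DESeq2 1 was higher, in complex III, against 593 of 14704 genes. With the replicate block 4983 genes were called (2522 or 17.2% higher, 2461 or 16.7% lower), and 18 subunits were higher: 6, 1, 3, 5 and 3 in complexes I to V. Without replicate 3 of both groups 3754 genes were called (1731 higher, 2023 lower), and 12 subunits were higher: 4, 1, 3, 2 and 2 in complexes I to V. Leaving out 1 library at a time gave 572 to 1741 genes called, 136 to 777 higher and 436 to 964 lower, and 0 to 4 subunits higher (0 to 1 in complex I, 0 to 2 in complex III, 0 to 1 in complex IV). In these fits the median log2 fold change was 0.0517 to 0.137 for all 53 subunits, 0.0702 to 0.129 for complex I, 0.0363 to 0.109 for complex II, 0.0493 to 0.264 for complex III, 0.0466 to 0.186 for complex IV and 0.0338 to 0.170 for complex V. The number of subunits with a log2 fold change above 0 was 39 to 47. The cause of these shifts was not tested. No subunit was called lower under these alternatives. In all, 22 of 53 subunits changed sign under at least 1 of them, among them COX4I1 (-0.02 to 0.14), NDUFC2 (-0.15 to 0.64), COX7C (-0.13 to 0.42), COX6C (-0.17 to 0.33), COX6A1 (-0.03 to 0.40), COX5B (-0.07 to 0.26) and NDUFA1 (-0.24 to 0.41). Of the 10 subunits chosen by rule 0 changed sign, but values moved, for SDHA from 0.04 to 0.29, for ATP5F1B from 0.06 to 0.20 and for ATP5MC1 from 0.14 to 0.44. DESeq2 size factors gave 1444 genes called and 0 subunits. Counting NDUFA4 with complex I used the same fit, so no subunit call could change. The medians were then 0.104 for complex I and 0.0875 for complex IV. In simulated libraries the group fit found 4% of the genes set to 1.25-fold, 52% of those set to 1.5-fold and 0% of those set to 1.1-fold. These libraries were drawn from the block fit, with a replicate effect shared by both groups. Under that setting, differences of the size seen here were mostly below what the group fit could call.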
